A study of Homo sapiens with 6 samples.

Results

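The genes described here encode subunits of the phagocyte NADPH oxidase. They were taken by symbol, as CYBB, CYBA, NCF1, NCF4 and RAC2, and all 5 had a row among the 17066 gene symbols of the deposited values. Transcripts were sequenced in 3 groups of K562 cells, an established human leukemia line of erythroid character, with 2 replicates in each group (6 samples). CTR cells carry an empty vector, CEBPA cells a Tet-inducible wild-type C/EBPα and P30 cells a Tet-inducible p30 isoform, which lacks the N-terminal transactivation domain. The transgenes were placed with a PiggyBac transposon in K562 cells that express neither isoform, and all groups, CTR included, were treated with 200 ng/ml doxycycline for 48 h. Whether each line is 1 clone is not given in the sources used here, so that a difference between separately made lines and an effect of the transgene cannot be told apart.

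Each group has 1 FPKM per gene (fragments scaled by the length of the transcript and by all mapped fragments), with both replicates pooled. FPKM do not hold the depth of a sample, and the sources used here give a range of read totals over the libraries but none per sample. Pooling leaves no spread between replicates, so no value below has an error or a test, and each comparison describes pooled values. The paper tested differential expression with Cuffdiff on biological duplicates, and the outcomes of those tests were not used here. Changes are differences of log2(FPKM + 1), on which low genes appear to change less than their ratio says. A gene was counted as higher or lower when it exceeded 1 FPKM in either group of the pair and differed by at least 2-fold, a log2 difference of 1. A gene that exceeded 1 FPKM in only 1 group of a pair could not be counted as lower in that group. In such bulk samples, more cells with a transcript and more transcript per cell cannot be told apart.

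The phagocyte oxidase passes electrons from NADPH in the cytosol to oxygen on the far side of the membrane and so makes superoxide, with which neutrophils and macrophages kill ingested microbes. Its membrane part is flavocytochrome b558, a heterodimer of the catalytic subunit gp91phox (CYBB, also called NOX2) and p22phox (CYBA), each of which stabilizes the other. In resting cells p47phox (NCF1) and p40phox (NCF4) wait in the cytosol. On stimulation p47phox is phosphorylated and docks on p22phox, p40phox binds a phosphoinositide of the phagosome, and the GTPase Rac2 (RAC2) joins separately. Loss of a phox protein causes chronic granulomatous disease.

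The membrane subunits behaved differently from each other. CYBB lies on the plus strand of chromosome X (GRCh37, chrX:37639271-37672714). The FPKM of CYBB was 1.79 in CTR, 152 in CEBPA and 1.90 in P30. The CEBPA line was thus the only one of the 3 groups with a high CYBB level, while CTR and P30 were nearly equal. CEBPA exceeded CTR by 5.78 on the log2 scale, an 84.9-fold ratio of the FPKM, and P30 exceeded CTR by 0.06. The difference in CEBPA vs CTR ranked 23rd from the top among 13673 genes. In level, CYBB stood above 95.7% of the genes over 1 FPKM in CEBPA, and above only 8.51% in CTR and 9.0% in P30. A later Gencode release places a long protein coding locus over CYBB on the same strand, and any reads of it could not be separated.

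CYBA, on the minus strand of chromosome 16 (GRCh37, chr16:88709683-88717491), was abundant in every group. Its FPKM was 292 in CTR, 239 in CEBPA and 359 in P30, which placed it above 97.6% to 98.2% of the genes over 1 FPKM. Its log2 differences were -0.28 in CEBPA vs CTR, 0.30 in P30 vs CTR and -0.58 in CEBPA vs P30, all within 2-fold. Because FPKM are per transcript length, the partners can be compared within a group. There was 163 times as much CYBA as CYBB in CTR and 188 times as much in P30, but only 1.58 times as much in CEBPA. Behind this near parity in CEBPA, CYBB was 84.9-fold higher and CYBA 1.22-fold lower than in CTR.

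**Figure D1:**
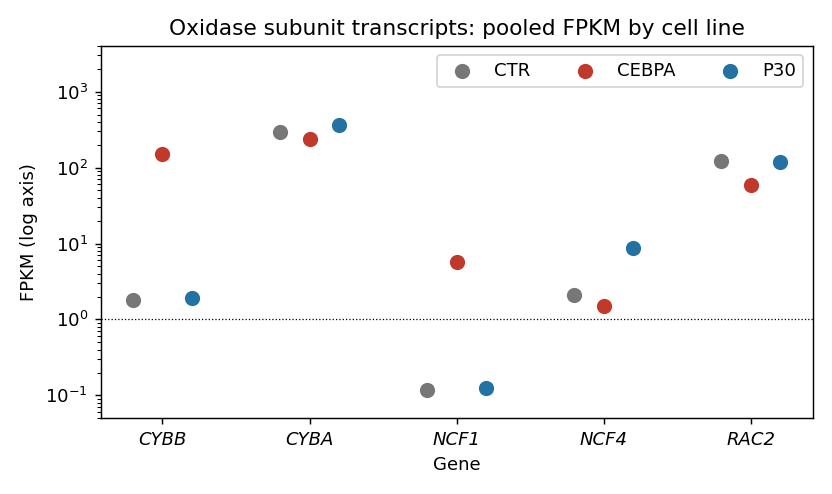
Pooled FPKM (log axis) of the 5 chosen subunit genes in the CTR, CEBPA and P30 lines, with 1 point per group and no error, since replicates were pooled; the dotted line is 1 FPKM. CYBB and NCF1 have their highest point in CEBPA, NCF4 is highest in P30, and CYBA and RAC2 are over 50 FPKM in every group.

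Among the cytosolic subunits, NCF1 was below 1 FPKM in CTR (0.118 FPKM) and P30 (0.124 FPKM) and reached 5.72 FPKM in CEBPA, where its level still ranked only 9197th from the top among 13137 genes over 1 FPKM. As for CYBB, CEBPA was the group that stood apart, but here CTR and P30 were too low to be compared. CEBPA exceeded CTR by 2.59 and P30 by 2.58 on the log2 scale, or 48.6-fold and 46.0-fold as ratios of the FPKM. In P30 vs CTR both values were below 1 FPKM, and NCF1 was not compared.

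NCF1 (plus strand, GRCh37, chr7:74188358-74203659) has the nearly identical pseudogenes NCF1B and NCF1C on the same chromosome, so its level is uncertain. Of all stretches of 100 bases, the longer read length of the study, in the 1349 nt transcript ENST00000289473 of NCF1, 57.4% occurred unchanged in an annotated transcript of either pseudogene. At the shorter read length of 86 bases the share was 63.2%. NCF1B had a listed FPKM of 0 in CTR, 1.30 in CEBPA and 0.00878 in P30. NCF1C had 0.0412, 2.37 and 0.119 FPKM, respectively. Both pseudogene rows were therefore also highest in CEBPA. Summed over the 3 rows the FPKM were 0.159 in CTR, 9.39 in CEBPA and 0.252 in P30, of which the row of NCF1 itself held 74.0%, 60.9% and 49.4%. How the reads were divided between these rows was not tested.

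NCF4, on the plus strand of chromosome 22 (GRCh37, chr22:37257030-37274059), had a different order of the groups. NCF4 reached 8.78 FPKM in P30, against 2.11 in CTR and 1.50 in CEBPA. Here P30 was high and CEBPA was the lowest of the 3 groups. The log2 difference was 1.65 in P30 vs CTR, a 4.16-fold ratio that ranked 49th from the top among 12395 genes. In CEBPA vs CTR it was -0.32, within 2-fold, and in CEBPA vs P30 it was -1.97. The antisense RNA NCF4-AS1 overlaps NCF4 on the other strand. The libraries were strand-specific, but the paper states default parameters for the alignment. The strand setting of the quantification is not given in the sources used here. Whether reads of NCF4-AS1 were kept apart from those of NCF4 was not tested.

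RAC2 (GRCh37, chr22:37621310-37655634, minus strand) encodes the Rac GTPase of blood cells. Its FPKM was 123 in CTR, 58.5 in CEBPA and 120 in P30. CTR and P30 were nearly equal, and CEBPA was the lowest of the 3 groups. The log2 difference of CEBPA was -1.06 from CTR and -1.02 from P30, just past the 2-fold limit, and that of P30 from CTR was -0.04. When each group was rescaled to the same summed FPKM, the first pair of differences became -0.94 and -0.89 and no longer reached 2-fold. Its relative RAC1, the broadly expressed Rac, had 199, 160 and 203 FPKM in CTR, CEBPA and P30, so that RAC2 went from 0.616 of the RAC1 level in CTR to 0.365 in CEBPA and 0.588 in P30.

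**Figure D2:**
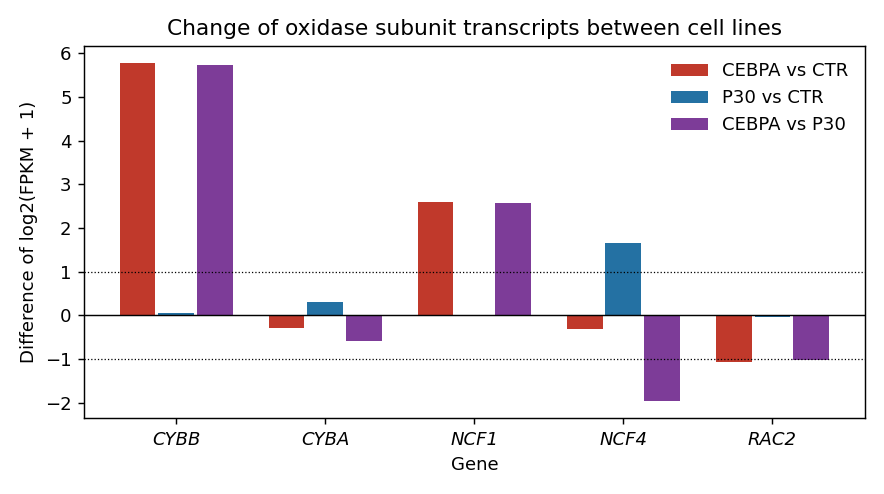
Differences of log2(FPKM + 1) between pairs of groups for the 5 chosen subunit genes; bars start at 0, dotted lines mark 2-fold, and NCF1 has no bar in P30 vs CTR, where both values were below 1 FPKM. The tall bars of CYBB and NCF1 are those of CEBPA, and the bar of NCF4 above 2-fold is that of P30 vs CTR.

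Which subunit transcript was the scarcest in each line was read from the order of the FPKM. In CTR the order from the lowest was NCF1 (0.118 FPKM), CYBB (1.79), NCF4 (2.11), RAC2 (123) and CYBA (292). The 3 lowest transcripts encode the catalytic subunit or a cytosolic phox protein, and the highest member exceeded the lowest 2480-fold. In P30 the order was NCF1 (0.124), CYBB (1.90), NCF4 (8.78), RAC2 (120) and CYBA (359). The order of the members was thus the same as in CTR, and the ratio of the highest to the lowest member was 2890.

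In CEBPA the order was NCF4 (1.50), NCF1 (5.72), RAC2 (58.5), CYBB (152) and CYBA (239). All 5 members were over 1 FPKM only in this line among the 3 groups, and the ratio of the highest to the lowest member was 160. NCF1, whose product carries the cytosolic subunits to the membrane, was the next lowest in CEBPA, at 26.5-fold less than CYBB. With the pseudogene rows added to NCF1, NCF1 was still the lowest member in CTR and P30. Adding rows can only raise NCF1, so NCF4 could not have been displaced as the lowest in CEBPA. The ratio of the highest to the lowest member was then 1840 in CTR, 160 in CEBPA and 1420 in P30, so that it was larger in CTR than in P30. Without values of single replicates it is not known which neighbours in these orders, such as CYBB and NCF4 in CTR, differ beyond their spread. These are levels of transcripts. The amounts of the proteins, their phosphorylation and oxidase activity were not measured, so the scarcest transcript need not be the subunit that limits assembly.

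The members were then set beside all genes. In CEBPA vs CTR, 2 of the 5 members (CYBB and NCF1) were at least 2-fold higher, as were 14.0% of 13673 genes, and 1 (RAC2) was at least 2-fold lower, as were 6.92%. In P30 vs CTR, 4 members passed the filter and 1 of them (NCF4) was at least 2-fold higher, where only 1.02% of 12395 genes were, and none was lower, where 0.613% of genes were. In CEBPA vs P30, 2 members (CYBB and NCF1) were higher in CEBPA, beside 13.1% of 13569 genes, and 2 (NCF4 and RAC2) were lower, beside 5.79%. NCF1 passed the filter in the pairs with CEBPA only through its CEBPA value. It could therefore not have been counted as lower there. The median difference over the members was -0.28, 0.18 and -0.58 in the 3 pairs, against -0.01, 0.02 and -0.04 over all genes. These medians describe no member well, since the members went in different directions. The 3 pairs share groups, and their counts are not independent.

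**Figure D3:**
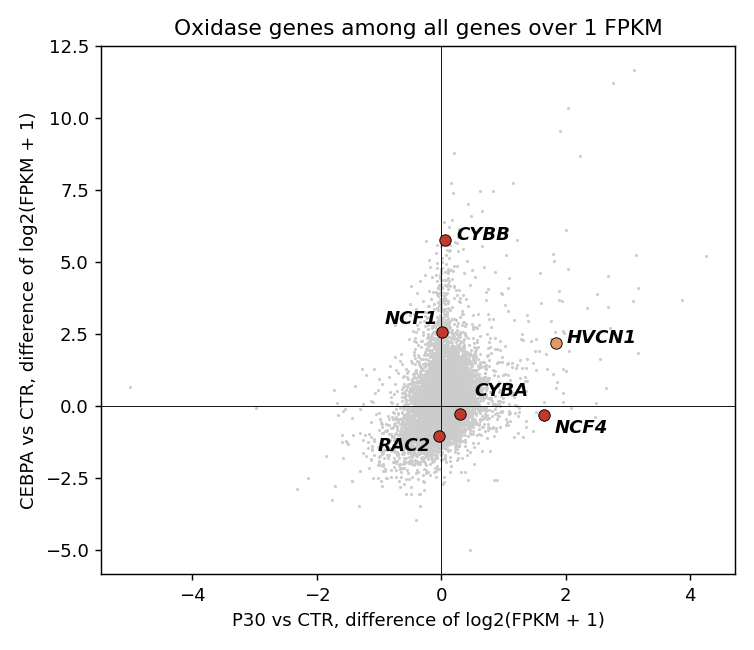
Each grey point is a gene that exceeded 1 FPKM in some group, placed by its difference of log2(FPKM + 1) in P30 vs CTR (horizontal) and CEBPA vs CTR (vertical); both axes use the same CTR values. The 5 chosen genes (red) are spread out. CYBB and NCF1 lie above the center at about 0 for P30, a position that for NCF1 rests on values below 1 FPKM. NCF4 lies to the right at -0.32 for CEBPA, and RAC2 is below. The proton channel gene HVCN1 (orange) is up and to the right.

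For each member, the 3 genes with the most similar pair of changes against CTR were looked up, by the distance between their CEBPA and P30 differences. Only 3 groups stand behind this measure, so likeness is easily reached. CYBB was closest to FGR, a Src family kinase of myeloid cells (0.0486, 53.9 and 0.219 FPKM in CTR, CEBPA and P30), at a distance of 0.170, followed by CCK and STX11. Only 2 genes lay within 0.2 of CYBB. NCF4 had FADS1, a fatty acid desaturase, as its closest gene (76.6, 66.0 and 223 FPKM), at 0.163, followed by CCDC26 and RP6-159A1.3, and it too had only 2 genes within 0.2. NCF1 (RP11-693N9.2, GPR18 and SMAD5-AS1), RAC2 (HSPG2, GSS and TM7SF2) and CYBA (ETV3, SPAST and GPI) had neighbours at 0.040 or closer, and 64, 390 and 583 genes within 0.2, respectively.

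Because CYBB and NCF1 were both at least 2-fold higher in CEBPA than in CTR and P30 while CYBA was not, their upstream sequences are shown. RefSeq promoters (GRCh38.p14) were matched by symbol for 3 of the 5 members, CYBB, NCF1 and CYBA; those of NCF4 and RAC2 were not used here. The 250 bases before the annotated start are given 5′ to 3′ on the strand of the gene, for CYBB at chrX:37779809-37780058 (plus strand), for NCF1 at chr7:74773761-74774010 (plus strand) and for CYBA at chr16:88651054-88651303 (minus strand). Capitals mark matches, on either strand, to 3 motifs: TTNCNNAA for C/EBP factors, GAGGAA for PU.1, the myeloid Ets factor, and GATAA for GATA factors. No match overlapped another.
CYBB: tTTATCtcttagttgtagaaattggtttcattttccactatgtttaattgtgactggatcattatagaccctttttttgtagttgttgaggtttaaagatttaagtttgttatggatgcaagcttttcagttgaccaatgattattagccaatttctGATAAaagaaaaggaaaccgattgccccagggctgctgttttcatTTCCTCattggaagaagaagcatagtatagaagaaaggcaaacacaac
NCF1: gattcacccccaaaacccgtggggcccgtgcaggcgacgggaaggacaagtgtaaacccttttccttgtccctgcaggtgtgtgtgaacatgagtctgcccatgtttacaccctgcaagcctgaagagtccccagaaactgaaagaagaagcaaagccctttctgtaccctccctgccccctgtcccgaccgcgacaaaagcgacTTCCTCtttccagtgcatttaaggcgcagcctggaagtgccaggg
CYBA: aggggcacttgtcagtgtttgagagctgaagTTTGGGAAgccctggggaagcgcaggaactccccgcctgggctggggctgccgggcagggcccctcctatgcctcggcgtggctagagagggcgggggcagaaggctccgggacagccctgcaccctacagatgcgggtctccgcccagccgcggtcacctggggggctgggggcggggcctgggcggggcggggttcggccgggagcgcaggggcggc

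CYBB and NCF1 each held 1 PU.1 match, TTCCTC, which is GAGGAA on the other strand. It lay 43 to 48 bases before the start in CYBB and 40 to 45 bases before it in NCF1. CYBA held none. Such a match occurred in 23.6% of 35116 promoters. CYBB also had 2 GATA matches, found in 20.4% of promoters. Neither CYBB nor NCF1 held the C/EBP motif, whereas CYBA had 1 match and 33.2% of promoters at least 1. In base composition CYBB (34.0% G and C) and CYBA (73.6%) differed widely, and NCF1 had 56.4%. These are matches of letters, and binding was not measured.

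Other genes of the oxidase were looked up from lists. Of 5 symbols for further parts and helpers, 4 had a row. The proton channel HVCN1, which lets protons out to balance the charge of the electrons that the oxidase moves, was higher in both induced lines: its FPKM was 3.07 in CTR, 17.6 in CEBPA and 13.6 in P30, with log2 differences of 2.20 and 1.84. RAC1, the small GTPase RAP1A (59.5, 65.7 and 61.2 FPKM) and C17orf62, the chaperone of the flavocytochrome also called EROS (41.7, 31.6 and 47.8 FPKM), were within 2-fold in all pairs. Of 10 genes of other NOX and DUOX enzymes and their partners, only the organizer NOXO1 and the activator NOXA1 had a row. Both were low, at 0.806 to 1.65 FPKM and 2.16 to 4.57 FPKM, and neither differed by 2-fold in any pair on the log2(FPKM + 1) scale.

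Regulators of Rac mostly stayed within 2-fold. Of 13 genes, 12 had a row and 10 passed the filter in each pair. In CEBPA vs CTR 1 was lower, RAC3, another Rac (85.6 and 36.1 FPKM), beside 6.92% of all genes. None was higher, beside 14.0% of all genes, 9 were within 2-fold, and the median was -0.25. In P30 vs CTR, where 1.02% of all genes were higher and 0.613% lower, all 10 were within 2-fold, with a median of 0.28. The exchange factors VAV1 (11.0, 5.74 and 15.6 FPKM in CTR, CEBPA and P30) and DEF6 (23.8, 13.8 and 38.0) were, like RAC2, lowest in CEBPA. These 2 of the 10 were at least 2-fold lower there than in P30, beside 5.79% of all genes.

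Of 15 kinases and lipid enzymes that act on the cytosolic subunits or supply their lipids, all passed the filter. MAPK14, the p38 kinase that primes p47phox, was at 31.3 (CTR), 101 (CEBPA) and 40.8 (P30) FPKM. The phospholipase PLA2G4A had 0.905, 4.60 and 1.25 FPKM. MAPK14 and PLA2G4A were the 2 of 15 genes at least 2-fold higher in CEBPA vs CTR, near the 14.0% of all genes that were. None was lower, beside 6.92% of all genes, and the median was 0.10. In P30 vs CTR only PIK3CG, the PI3-kinase downstream of chemoattractant receptors, was past 2-fold (6.95 and 15.5 FPKM), beside 1.02% of all genes that were higher. The median was 0.24. The protein kinase C genes PRKCB (70.2, 42.4 and 69.3 FPKM) and PRKCD (8.23, 9.97 and 11.2), whose products phosphorylate p47phox, were within 2-fold in all pairs.

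Transcription factors known to act on subunit genes were measured in 7 of 9 cases, and 6 passed the filter. SPI1, which encodes PU.1, was at 41.3 (CTR), 78.2 (CEBPA) and 89.4 (P30) FPKM. It was thus present in all groups. The difference reached 2-fold only in P30 vs CTR, at 1.10 against 0.90 in CEBPA vs CTR. CEBPE, a C/EBP factor of late granulocyte maturation, had 0.560, 11.2 and 4.31 FPKM, the same order as HVCN1. IRF8, a partner of PU.1 on CYBB, was below 1 FPKM in every group, at 0.00882, 0.755 and 0.0187. In all, 2 factors (CEBPE and MEIS1) were higher in CEBPA vs CTR and 3 (SPI1, CEBPE and RUNX1) in P30 vs CTR, with medians of 0.88 and 0.67. The shares of all genes higher in these pairs were 14.0% and 1.02%.

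**Figure D4:**
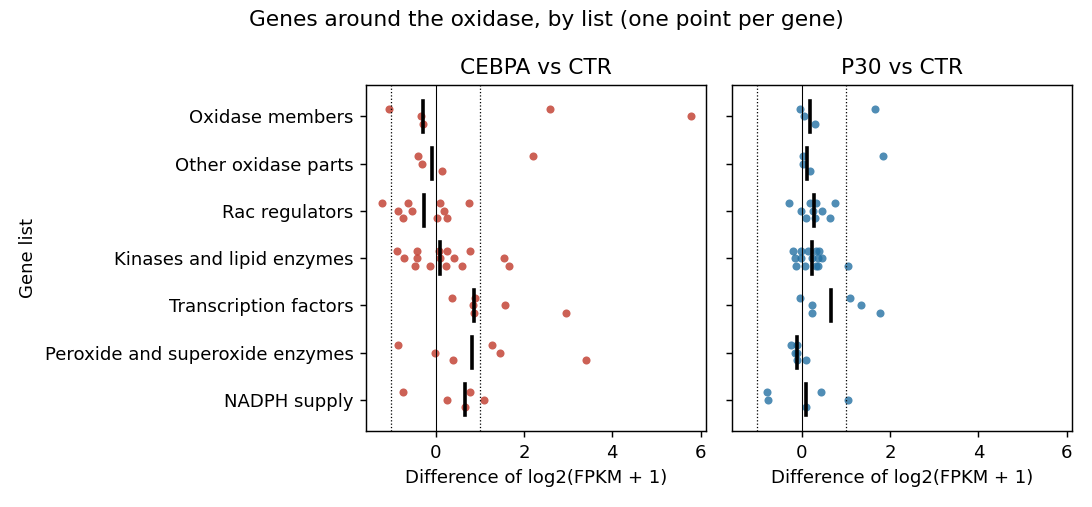
Differences of log2(FPKM + 1) for genes around the oxidase that exceeded 1 FPKM in either group of the pair, in CEBPA vs CTR (left) and P30 vs CTR (right), with 1 point per gene, a black bar at each list's median and dotted lines at 2-fold. The chosen oxidase genes spread from -1.06 to 5.78 on the left, and on the right only NCF4 of them passes 2-fold.

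Some enzymes that handle superoxide or hydrogen peroxide, from whatever source, were higher in CEBPA. Of 8 genes 6 had a row, and 3 of these were at least 2-fold higher in CEBPA vs CTR, beside 14.0% of all genes. None was lower, beside 6.92% of all genes. SOD2, a mitochondrial superoxide dismutase, had 50.3, 543 and 54.1 FPKM in CTR, CEBPA and P30, SOD1, its cytosolic relative, 517, 1413 and 479, and catalase (CAT), which breaks down hydrogen peroxide, 56.3, 138 and 52.4. As for CYBB, CTR and P30 were close and CEBPA was high. No gene of this list was past 2-fold in P30 vs CTR, where 1.02% of all genes were higher and 0.613% lower. The median there was -0.11, against 0.83 in CEBPA vs CTR. Of 5 enzymes that supply NADPH or its substrates, TKT was the one past 2-fold in CEBPA vs CTR (143 and 306 FPKM) and PGD in P30 vs CTR (198 and 416), with medians of 0.67 and 0.10. The shares of all genes higher in these pairs were 14.0% and 1.02%.

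Marker genes were checked beside these results. The erythroid markers of K562 were present: 6 of 8 had a row and all 6 were over 1 FPKM in every group, with summed levels of 1730 (CTR), 569 (CEBPA) and 1124 (P30) FPKM. All 6 were at least 2-fold lower in CEBPA vs CTR, and 2 (HBG1 and ALAS2) in P30 vs CTR, beside 6.92% and 0.613% of all genes. Of 10 phagocyte markers 8 had a row, with summed levels of 8.31 (CTR), 8474 (CEBPA) and 59.4 (P30) FPKM, nearly all of the CEBPA sum from S100A8 and S100A9. In CEBPA vs CTR 6 were at least 2-fold higher, and in P30 vs CTR 4 (ITGAM, ITGB2, S100A8 and S100A9), beside 14.0% and 1.02% of all genes. ITGAM, an integrin chain of phagocytes, had 2.59, 2.43 and 14.3 FPKM and was, like NCF4, high in P30 and not in CEBPA. Of 7 lymphoid markers 5 had a row, with summed levels of 15.9 (CTR), 7.64 (CEBPA) and 16.6 (P30) FPKM, and no marker with a row was listed at 0 in any group. The part of cells of another type in the oxidase results was not tested.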

How the data were processed

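RNA-seq of CTR, CEBPA and P30 K562 cells (2 replicates each) was used. The paper describes a first sequencing run with reads of 86 bases and a second with reads of 100 bases, on different instruments. Libraries of the second run were prepared at an outside institute. Which sample was in which run is not given in the sources used here, and pooled FPKM cannot show a difference between runs. The authors aligned paired-end reads to hg19 with TopHat2 (version 2.0 per the labels), assembled transcripts with Cufflinks and deposited FPKM estimated by Cuffdiff. The 3 tables each hold 1 pooled FPKM per gene for 2 groups; how rows were selected and the library normalization are not given in the sources used here. Read counts and the depth per sample cannot be read from these FPKM, and no replicate test was possible. No value column was left out.

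The 5 members and all gene lists were chosen with earlier results of these data known, and some genes of the lists are not reported here. Named genes are the members, the genes of the lists and, per member, the 3 nearest in pattern. Differences of log2(FPKM + 1) were computed within each pair of groups for genes over 1 FPKM in at least 1 of them, each row counting as 1 gene, with 2-fold as the limit. For patterns across the 3 groups, symbols occurring once were joined. Gene positions and transcripts are from Gencode on GRCh37, the build of the alignment, in a later release than the authors', and promoters from RefSeq. The computation was tested on simulated data, with changes far larger than the noise. The changed genes had higher CTR levels than CYBB, NCF1 and NCF4, so the test did not cover such low genes. Alternatives were a pseudocount of 0.1, median centring, rescaling to equal totals, filters at 0 or 5 FPKM, and NCF1 summed with its pseudogenes. Python 3.11.15, numpy 2.4.6, pandas 2.3.3 and matplotlib 3.10.9 were used.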

Additional observations from a re-analysis of the deposited data

How the results depend on the processing

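No paired analysis was possible because no column holds a single replicate, which also left the replicate block and the fits without each replicate not run. A log2 value was taken as moved beyond 0.20, the scaled median absolute deviation of P30 vs CTR over all genes, and a count or share beyond 1.5 times. In all, 29 results were recomputed 104 times: 88 values were within these limits, 16 moved and 0 reversed. The causes were not tested.

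With a pseudocount of 0.1, CEBPA differed in CYBB by 6.33 from CTR and 6.24 from P30, in NCF1 by 4.74 and 4.70, while NCF4 differed by 2.01 in P30 vs CTR and by -2.47 in CEBPA vs P30. The log2 gap from the lowest to the highest member became 10.39 in CTR, 7.23 in CEBPA and 10.64 in P30, and 1.61% of genes were higher and 1.48% lower in P30 vs CTR. With NCF1B and NCF1C added, CEBPA differed in NCF1 by 3.16 from CTR and 3.05 from P30. The members at least 2-fold lower numbered 0 in CEBPA vs CTR with groups rescaled to the same total, and 1 in CEBPA vs P30 with that scaling or with centring, since RAC2 no longer passed. Rescaling was applied to the counts and shares after seeing the data. The lowest member was recomputed only with the pseudocount of 0.1 and with the pseudogene rows added. It stayed NCF1 in CTR and P30 and NCF4 in CEBPA. A pseudocount cannot change the order, and added rows can only raise NCF1. Only the sum in CTR and P30 could thus have given another member.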
